A study of Mus musculus with 24 samples.

Results

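The TRIM (tripartite motif) genes of the mouse were followed through 24 polyA RNA-seq libraries made from macrophages (BMDMs) and dendritic cells (BMDCs) that were grown out of bone marrow. Members were all protein-coding genes whose symbol is Trim followed by a digit, which gave 68 of the 54532 genes in the table. The libraries form 8 groups of 3, which combine the cell type, a WT or CRE genotype label, and control or DMXAA treatment. Both labels come from mice that carry floxed alleles of Tmem173, the gene of the DNA-pathway adaptor STING, and that received tamoxifen. The WT label stands for Tmem173fl/fl mice, and the CRE label for Tmem173fl/fl mice with a tamoxifen-inducible Cre (Lzym-Creert2) driven from the lysozyme gene Lyz2, which is active in myeloid cells. DMXAA (vadimezan) is an agonist of mouse STING. The series gives its dose as 40 µM, whereas the methods of the study state another unit for cells in culture, so the concentration is uncertain. Exposure times are given for other experiments and ages, as ranges, for the tamoxifen-treated mice in general, but neither is tied to the cultures that were sequenced. BMDMs were grown with L929-conditioned medium and BMDCs with GM-CSF and IL-4. Nothing says whether libraries of a group came from separate mice, so p-values measure only the spread between these libraries.

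TRIM proteins are built from a RING domain, B-boxes and a coiled coil, and most of them act as ubiquitin ligases whose specificity comes from a variable C-terminal domain. Several tune the sensing of foreign nucleic acid. TRIM25 activates the RNA sensor RIG-I, TRIM56 and TRIM32 modify STING, and mouse Trim30a restrains both STING and Toll-like receptor signalling. Others restrict viruses directly, and many are themselves switched on by interferon, which STING induces through TBK1 and IRF3.

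Of the 68 members, 38 had enough expression to be tested in at least one cell type, 34 of them in both. Trim6, Trim29 and Trim46 were tested in BMDCs only and Trim62 in BMDMs only. A gene entered the test when its FPKM (fragments per kilobase of gene, scaled to library size) reached 1 in at least 3 of the 12 BMDC libraries or 2 of the 8 BMDM libraries used. Of the remaining 30, 24 stayed under 1 FPKM in all 24 libraries, and 5 of these (Trim31, Trim42, Trim52, Trim61 and Trim80) had no count at all. The other 6 (Trim2, Trim7, Trim34b, Trim43c, Trim69 and Trim72) reached 1 FPKM in too few of the libraries used. Between 27 and 37 members reached 1 FPKM in any library. In FPKM, which is a level per gene length, the most abundant member was Trim28, a corepressor recruited by KRAB zinc finger proteins, in the BMDM controls and Trim35 in the BMDC controls. Under DMXAA that place was taken by Trim30a in every library used. The filter also shaped who was tested, because Trim30b, Trim30c and Trim6 passed it in BMDCs only through DMXAA libraries, as did Trim30b and Trim30c in BMDMs. Trim16, Trim29 and Trim65 passed it in BMDCs only through control libraries.

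**Figure D1:**
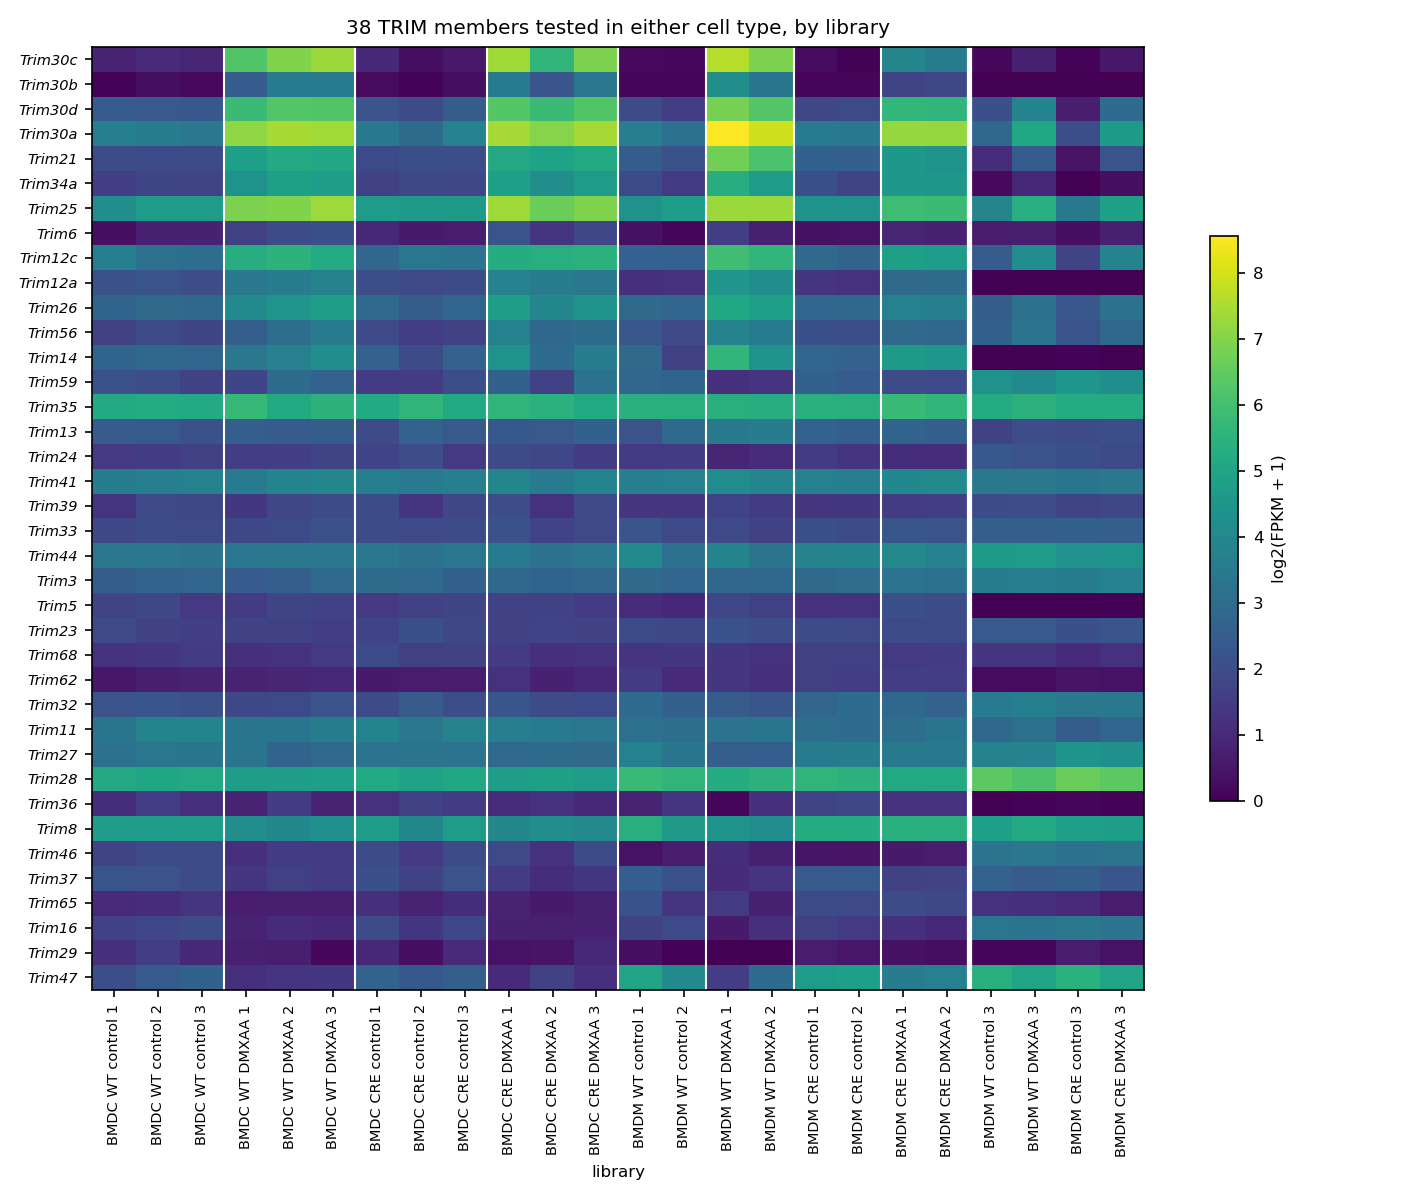
Levels of the 38 tested members (rows) in the 24 libraries (columns), as the colour of log2(FPKM + 1), with the 4 BMDM libraries numbered 3 set apart at the right. Trim30a, Trim30c, Trim30d, Trim12c, Trim34a, Trim21, Trim25 and Trim26 brighten in the DMXAA columns of the 20 libraries used. Trim28 and Trim35 are bright in controls and DMXAA alike.

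Total counts ran from 15657347 to 18912887 per library. The 4 BMDM libraries numbered 3 did not carry the markers of their label. Over 6 leukocyte markers their summed level was 0.389 to 1.75 CPM (counts scaled to library size), against 2930 to 3970 in the other 8 BMDM libraries, and over 8 macrophage markers it was 42.2 to 70.8 against 9610 to 21300. Over 8 fibroblast markers it was 15900 to 22700 against 62.5 to 881. These 4 libraries were therefore left out of the BMDM tests and are described apart, so BMDM groups hold 2 libraries each. Among the 8 that remained, fibroblast markers summed to 881 CPM in WT control number 2 and 743 in WT DMXAA number 2, and to 62.5 to 125 in the other 6. The part of these transcripts in the BMDM results was not tested. BMDCs carried the dendritic cell markers, at 8670 to 17500 summed CPM over 8 genes. In bulk RNA a gene lower in a culture can reflect fewer cells of a type or less RNA per cell, which cannot be told apart here. Tmem173 itself did not mark the CRE label in BMDCs, where it stood at 36.8, 19.7 and 28.4 FPKM in CRE controls and 51.6, 28.8 and 35.3 in WT controls. BMDM controls held 10.4 and 8.76 FPKM in CRE and 14.7 and 9.91 in WT, whereas under DMXAA the CRE libraries had 9.12 and 10.1 and the WT libraries 31.8 and 22.8. The counts are per gene and do not show whether a transcript carries the deleted part, so the labels are used below as names only.

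DMXAA raised a shared set of members in both cell types and under both labels, and lowered fewer. In WT BMDCs 13 of 37 tested members rose and 6 fell (edgeR, adjusted p under 0.05), where 32.2% of all tested genes were called, 17% higher and 15.2% lower. In CRE BMDCs 13 rose and 3 fell, with 25.4% of all genes called, 14% higher and 11.4% lower. WT BMDMs had 14 members higher and 8 lower of 35, with 39.2% of all genes called, 18.4% higher and 20.7% lower. CRE BMDMs had 12 higher and 2 lower, where 10% of all genes were called, 7.28% higher and 2.72% lower. As a share of tested members, the called ones made up 51.4% and 43.2% in WT and CRE BMDCs and 62.9% and 40% in WT and CRE BMDMs. The median log2 fold change over tested members was small in each response, at 0.05, 0.02, 0.09 and 0.19 in the same order, beside 0.01, -0.01, -0.08 and -0.01 over all genes. Rises and falls both enter these medians, so a median near 0 does not show that most members stayed near 0.

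The 11 members higher in all 4 responses were Trim12a, Trim12c, Trim21, Trim25, Trim26, Trim30a, Trim30b, Trim30c, Trim30d, Trim34a and Trim56. Only Trim37 was lower in all 4. The CRE BMDM calls of Trim26 and Trim56 were not kept in fits that left out 1 CRE library. Their log2 fold changes there were 0.911 to 1.02 and 0.937 to 1.06. That call of Trim21 was kept in only some of these fits, at 1.925 to 2.08. In all, 24 members were called in at least one response, and 14 that were tested were called in none. Libraries of the same number within a label varied together in BMDCs. With that pairing as a block, 21 members instead of 19 were called in WT and 21 instead of 16 in CRE. Over all genes the share called went from 32.2% to 48.7% in WT and from 25.4% to 42.7% in CRE. The newly called members were Trim46 (log2 fold change -0.74, adjusted p = 0.00444) and Trim29 (-1.64, 0.00871) in WT. In CRE they were Trim28 (-0.33, 0.0342), Trim36 (-0.65, 0.027), Trim65 (-0.67, 0.0198), Trim68 (-0.64, 0.0148) and Trim59 (1.07, 0.0361). With all 12 BMDM libraries in the fit, number 3 included, edgeR called no member and 0% of all genes in either BMDM response. There, 9 members in WT and 6 in CRE had an unadjusted p under 0.05. With the spread of the WT-labelled BMDM libraries used for all 8, it called 14 members in WT and 7 in CRE. Over all genes 14.7% and 1.78% were called with that spread. Leaving out any 1 CRE library also gave fewer calls in CRE than the fit on all 8, over members and over all genes.

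**Figure D2:**
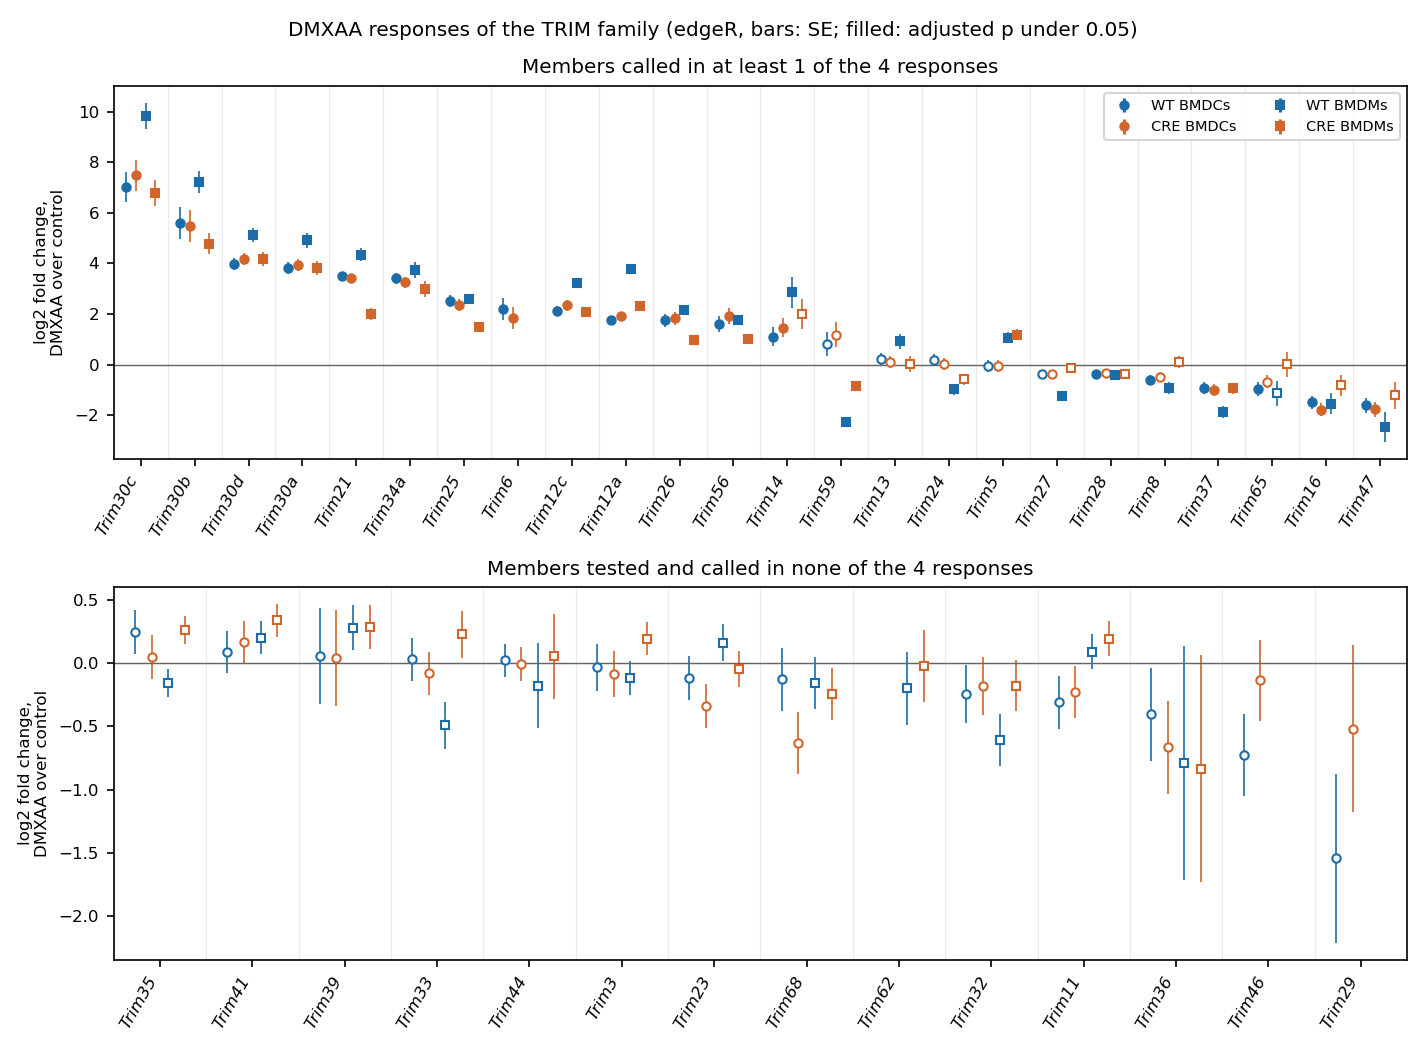
Log2 fold change under DMXAA (axis, with bars of 1 SE) of the 24 members called in at least one response (top) and the 14 tested members called in none (bottom). Blue stands for WT and orange for CRE, circles for BMDCs and squares for BMDMs, and filled symbols are called; the largest rises are those of Trim30c and Trim30b, and Trim37 is lower in all 4.

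The largest rises came from one stretch of chromosome 7. Of the 68 members, 10 lie within 289 kb there (chr7:104218793-104507849 in GRCm38), in the order Trim6, Trim34a, Trim5, Trim12a, Trim34b, Trim12c, Trim30b, Trim30c, Trim30a and Trim30d. Of these, 8 of 9 tested rose in BMDCs under each label, and 8 of 8 tested rose in BMDMs. These counts and the cluster medians that follow were partly set by the filter. Trim30b, Trim30c and Trim6 entered in BMDCs, and Trim30b and Trim30c in BMDMs, only through DMXAA libraries. Trim34b, and Trim6 in BMDMs, were too low to enter. The median log2 fold change of the cluster was 3.42 in WT and 3.25 in CRE BMDCs, and 4.35 and 3.40 in WT and CRE BMDMs. Outside the cluster, the 28 members tested in BMDCs had medians of -0.08 in WT and -0.11 in CRE, with 5 higher and 6 lower in WT and 5 higher and 3 lower in CRE. The 27 outside members tested in BMDMs had medians of -0.18 in WT and 0.02 in CRE. Of them, 6 were higher and 8 lower in WT, and 4 higher and 2 lower in CRE. Over all tested genes 17% were called higher and 15.2% lower in WT BMDCs, and 14% and 11.4% in CRE BMDCs. In WT BMDMs the shares were 18.4% and 20.7%, and in CRE BMDMs 7.28% and 2.72%. The cluster's share of the summed FPKM of the family moved from 11% to 15% in BMDC controls to 49.4% to 56.7% under DMXAA. In BMDMs it moved from 7.31% to 8.45% in controls to 60.5% and 53.9% in WT and 43.2% and 43.6% in CRE under DMXAA. These neighbours are close paralogs, so reads shared between copies could have been lost or assigned to either, and how the counting treated them was not given in the sources used here.

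**Figure D3:**
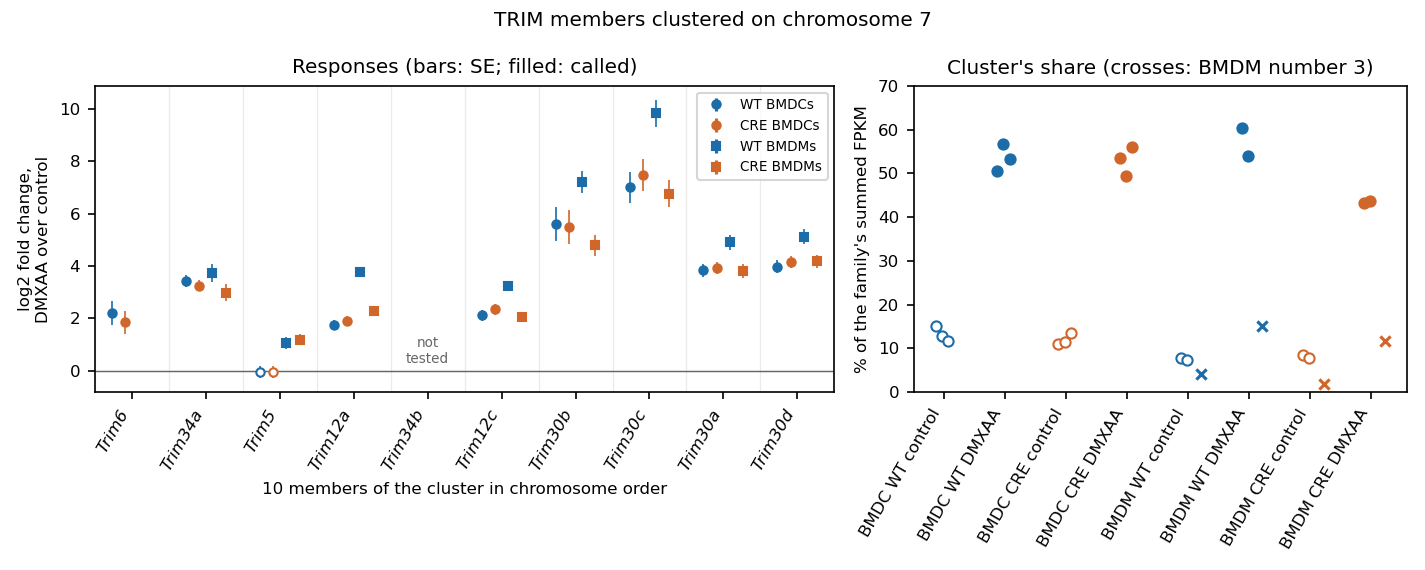
Left, log2 fold change under DMXAA (bars of 1 SE) of the cluster members in their order along chromosome 7, with Trim34b not tested and Trim6 tested in BMDCs only; filled symbols are called. Right, the share of the family's summed FPKM that the cluster holds in each library, 7.31% to 15% in controls and 43.2% to 60.5% under DMXAA, with the BMDM libraries numbered 3 as crosses.

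Trim30a, which promotes loss of the TAB2 and TAB3 adaptors of the Toll-like receptor pathway and of STING, was the riser with the highest level per gene length. Trim30a stood in BMDCs at an FPKM of 12.1, 11.4 and 9.68 in WT controls, 140.3, 172 and 166 in WT under DMXAA, 9.96, 7.25 and 12.9 in CRE controls and 169.6, 128 and 169.5 in CRE under DMXAA. BMDM libraries held Trim30a at 11.6 and 7.71 in WT controls, 379 and 248 in WT under DMXAA, 10.6 and 10.1 in CRE controls and 148 and 146 in CRE under DMXAA. Every DMXAA library lay above every control of its cell type, and the 2 WT BMDM libraries were the highest of all. The log2 fold change of Trim30a was 3.83 ± 0.24 (SE) in WT BMDCs (adjusted p = 8.43e-07), 3.93 ± 0.24 in CRE BMDCs, 4.91 ± 0.28 in WT BMDMs (adjusted p = 5.72e-05) and 3.81 ± 0.27 in CRE BMDMs (adjusted p = 0.000304).

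The paralog Trim30c rose from near the detection limit. Trim30c stood in BMDCs at an FPKM of 0.754, 1.07 and 0.86 in WT controls, 75.03, 123 and 155 in WT under DMXAA, 0.998, 0.278 and 0.499 in CRE controls and 161, 47.3 and 118 in CRE under DMXAA. BMDM libraries held Trim30c at 0.171 and 0.138 in WT controls, 195 and 118 in WT under DMXAA, 0.196 and 0.0294 in CRE controls and 13.8 and 11.2 in CRE under DMXAA. The BMDM control values rest on 6 and 5 counts in WT and 6 and 1 in CRE, against 3785 and 2925 under DMXAA in WT and 393 and 311 in CRE. Groups did not overlap in any response, the WT BMDMs were far above the CRE BMDMs under DMXAA, and the BMDC libraries spread widely under DMXAA. With so few control counts the BMDM fold changes are loosely fixed. Trim30c had log2 fold changes of 7.01 ± 0.59 and 7.48 ± 0.61 (SE) in WT and CRE BMDCs and 9.83 ± 0.51 and 6.77 ± 0.52 in WT and CRE BMDMs.

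Trim30d stood in BMDCs at an FPKM of 4.59, 4.3 and 4.15 in WT controls, 56.8, 77.01 and 74.6 in WT under DMXAA, 3.74, 2.92 and 4.83 in CRE controls and 77.8, 56.4 and 74.6 in CRE under DMXAA. BMDM libraries held Trim30d at 2.97 and 2.01 in WT controls, 112 and 75.7 in WT under DMXAA, 2.54 and 2.82 in CRE controls and 49.8 and 48.7 in CRE under DMXAA. Control and DMXAA libraries did not overlap under either label. Its log2 fold changes were 3.98 ± 0.23 and 4.16 ± 0.23 (SE) in WT and CRE BMDCs, and 5.13 ± 0.27 and 4.18 ± 0.26 in WT and CRE BMDMs. Trim30b, the least abundant of the 4 copies, stood in BMDCs at an FPKM of 0.0716, 0.264 and 0.169 in WT controls, 4.66, 10.3 and 10.2 in WT under DMXAA, 0.188, 0.0633 and 0.27 in CRE controls and 10.7, 3.82 and 9.4 in CRE under DMXAA. BMDM libraries held Trim30b at 0.0911 and 0.0756 in WT controls, 18.2 and 9.08 in WT under DMXAA, 0.104 and 0.0736 in CRE controls and 2.41 and 2.59 in CRE under DMXAA. The DMXAA libraries again lay above all controls, and within BMDCs WT number 1 and CRE number 2 were the lowest of the DMXAA values, as they were for Trim30a and Trim30c. Trim30b had log2 fold changes of 5.61 ± 0.64 and 5.49 ± 0.64 (SE) in WT and CRE BMDCs, and 7.22 ± 0.42 and 4.79 ± 0.404 in WT and CRE BMDMs.

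Trim12a and Trim12c are rodent relatives of TRIM5, a factor that blocks incoming retroviral capsids. Trim12a stood in BMDCs at an FPKM of 3.38, 3.67 and 3.05 in WT controls, 9.83, 11.5 and 13.2 in WT under DMXAA, 3.16, 2.71 and 2.93 in CRE controls and 12.8, 11.2 and 9.73 in CRE under DMXAA. BMDM libraries held Trim12a at 1.22 and 1.39 in WT controls, 21.1 and 17.9 in WT under DMXAA, 1.49 and 1.31 in CRE controls and 6.84 and 7.15 in CRE under DMXAA. It was lower in BMDM than in BMDC controls and higher in WT BMDMs than in WT BMDCs under DMXAA, and control and DMXAA groups did not overlap. The log2 fold change of Trim12a was 1.75 ± 0.17 and 1.92 ± 0.17 (SE) in WT and CRE BMDCs, 3.79 ± 0.16 in WT BMDMs and 2.299 ± 0.15 in CRE BMDMs. The response differed between the cell types of the WT label by -2.01 ± 0.23 for BMDCs against BMDMs on the log2 scale (interaction, adjusted p = 0.000192), where 2.61% of all tested genes were called, 0.883% higher and 1.73% lower. Trim12a and Trim59 were the members called there, 1 lower and 1 higher of 40, and neither was called with the libraries numbered 3 included.

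Trim12c stood in BMDCs at an FPKM of 12.02, 8.03 and 7.64 in WT controls, 39.1, 45.03 and 37.5 in WT under DMXAA, 6.08, 9.36 and 8.5 in CRE controls and 38.1, 41.5 and 43.9 in CRE under DMXAA. BMDM libraries held Trim12c at 5.41 and 5.51 in WT controls, 61.05 and 48.9 in WT under DMXAA, 6.83 and 5.69 in CRE controls and 27.995 and 25.1 in CRE under DMXAA. All DMXAA libraries were above all controls. Trim12c had log2 fold changes of 2.11 ± 0.21 and 2.34 ± 0.21 (SE) in WT and CRE BMDCs, and 3.22 ± 0.17 and 2.06 ± 0.16 in WT and CRE BMDMs. Trim5, the mouse gene that shares the name of the restriction factor, did not follow its neighbours in BMDCs. Trim5 stood in BMDCs at an FPKM of 2.4, 2.58 and 1.67 in WT controls, 1.85, 2.44 and 2.23 in WT under DMXAA, 1.7, 2.23 and 2.49 in CRE controls and 2.23, 2.21 and 1.84 in CRE under DMXAA. BMDM libraries held Trim5 at 1.13 and 0.976 in WT controls, 2.64 and 2.1 in WT under DMXAA, 1.32 and 1.39 in CRE controls and 3.26 and 2.99 in CRE under DMXAA. Control and DMXAA libraries overlapped in BMDCs and were apart in BMDMs. Its log2 fold changes of -0.05 ± 0.23 and -0.05 ± 0.23 (SE) in BMDCs did not pass the test, whereas those of 1.06 ± 0.21 (adjusted p = 0.00874) in WT and 1.18 ± 0.21 (adjusted p = 0.019) in CRE BMDMs did. The CRE BMDM call of Trim5 was not kept in fits that left out 1 CRE library, where the log2 fold change was 1.11 to 1.24.

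Trim34a stood in BMDCs at an FPKM of 2.04, 2.48 and 2.4 in WT controls, 20.3, 28.3 and 26.6 in WT under DMXAA, 2.23, 2.62 and 2.52 in CRE controls and 27.7, 17.8 and 25.6 in CRE under DMXAA. BMDM libraries held Trim34a at 2.8 and 1.72 in WT controls, 39.8 and 24.99 in WT under DMXAA, 3.24 and 2.37 in CRE controls and 22.96 and 22.2 in CRE under DMXAA. The DMXAA libraries were all above the controls. Trim34a had log2 fold changes of 3.42 ± 0.22 and 3.25 ± 0.22 (SE) in WT and CRE BMDCs, and 3.73 ± 0.33 and 2.99 ± 0.32 in WT and CRE BMDMs. Its neighbour Trim34b was not tested, and stood in BMDCs at an FPKM of 0, 0.055 and 0.0826 in WT controls, 0.264, 1.35 and 0.394 in WT under DMXAA, 0.159, 0 and 0.231 in CRE controls and 0.503, 0.313 and 0.356 in CRE under DMXAA. BMDM libraries held Trim34b at 0.265 and 0.154 in WT controls, 0.669 and 0.0748 in WT under DMXAA, 0.0604 and 0 in CRE controls and 0.813 and 0.603 in CRE under DMXAA. Trim34b reached 1 FPKM in 1 of these libraries. Trim6, whose free ubiquitin chains activate the kinase IKKε in interferon signalling, stood in BMDCs at an FPKM of 0.275, 0.739 and 0.739 in WT controls, 2.11, 2.84 and 3.28 in WT under DMXAA, 0.93, 0.52 and 0.601 in CRE controls and 3.59, 1.43 and 2.53 in CRE under DMXAA. BMDM libraries held Trim6 at 0.31 and 0.0872 in WT controls, 1.92 and 0.693 in WT under DMXAA, 0.297 and 0.33 in CRE controls and 0.861 and 0.709 in CRE under DMXAA, too low for the test. In BMDCs the groups of Trim6 did not overlap, and the log2 fold change was 2.202 ± 0.44 (SE) in WT (adjusted p = 0.00292) and 1.85 ± 0.44 in CRE (adjusted p = 0.00926).

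The promoters of the risers were searched for the core of the interferon-stimulated response element, GAAA followed by any 2 bases and GAAA on either strand, in windows of 300 bases from 250 before to 50 after each RefSeq transcript start (GRCm38.p6). The core was in 3.44% of all 32851 windows. A window was found for 53 of the 68 members, 67 windows in all. Of these, 10 (14.9%) held the core. Among members higher in all 4 responses, 8 of 12 windows, from 7 of 11 genes, held the core, against 1 of 4 windows of members higher in some responses, 0 of 7 of members lower in some and 0 of 12 of tested members called in none. A further match was in Trim2, which was not tested. These are descriptions of letters in these windows and not of factor binding. The matches of responding members are shown, each as 30 bases of the gene's own strand in GRCm38.p6 with the core in capitals (TTTC, 2 bases and TTTC are the same core read from the other strand), because they show how far neighbours share the site.
Trim12a, chr7:104315466-104315495, minus strand: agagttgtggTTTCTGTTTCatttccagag
Trim12c, chr7:104353359-104353388, minus strand: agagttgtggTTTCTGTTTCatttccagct
Trim5, chr7:104288136-104288165, minus strand: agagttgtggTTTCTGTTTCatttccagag
Trim30a, chr7:104465210-104465239, minus strand: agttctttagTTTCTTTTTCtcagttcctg
Trim30a, second start, chr7:104446104-104446133, minus strand: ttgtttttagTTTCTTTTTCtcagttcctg
Trim30d, chr7:104507871-104507900, minus strand: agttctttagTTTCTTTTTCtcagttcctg
Trim34a, chr7:104244457-104244486, plus strand: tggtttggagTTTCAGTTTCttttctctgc
Trim21, chr7:102565447-102565476, minus strand: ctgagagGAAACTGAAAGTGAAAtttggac
Trim26, chr17:36836979-36837008, plus strand: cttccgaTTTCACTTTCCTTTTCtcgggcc

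The sites of Trim12a and Trim5 were the same over all 30 bases, as were those of Trim30a and Trim30d. Trim5 was not called in BMDCs although its window holds the site that Trim12a carries, and Trim30c rose most without a match in its window. Trim21 and Trim26 each held overlapping matches on one strand.

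Outside the cluster, 5 members rose in WT BMDCs and 6 in WT BMDMs. Over all tested genes 17% and 18.4% were called higher there, and whether the outside members exceed that share was not tested. Those that rose include ligases of the nucleic acid sensing pathways. Over a list of 17 members with a known role in such sensing, of which 15 were tested, 6 rose and 2 fell in WT BMDCs, 6 rose and 0 fell in CRE BMDCs, 7 rose and 4 fell in WT BMDMs and 5 rose and 0 fell in CRE BMDMs. The list was drawn up with results of these data known, and it includes Trim30a of the cluster. Over all genes 17%, 14%, 18.4% and 7.28% were called higher in that order, and 15.2%, 11.4%, 20.7% and 2.72% lower. The median log2 fold change of the list was 0.17, 0.10, 0.20 and 0.19 in that order.

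Trim21, a cytosolic antibody receptor and ubiquitin ligase, lies on chromosome 7 outside the cluster, at chr7:102557921-102565486. Trim21 stood in BMDCs at an FPKM of 2.93, 2.74 and 2.85 in WT controls, 27.6, 36.8 and 34.5 in WT under DMXAA, 2.83, 3.27 and 3.05 in CRE controls and 34.9, 30.1 and 35.8 in CRE under DMXAA. BMDM libraries held Trim21 at 4.73 and 3.32 in WT controls, 107 and 70.2 in WT under DMXAA, 5.36 and 5.12 in CRE controls and 22.5 and 20.3 in CRE under DMXAA. Groups did not overlap, and under DMXAA the 2 WT BMDM libraries were far above the 2 CRE libraries while the BMDC labels mixed. The log2 fold change of Trim21 was 3.51 ± 0.16 (SE, adjusted p = 1.14e-07) in WT and 3.44 ± 0.16 in CRE BMDCs, 4.35 ± 0.26 (adjusted p = 7.41e-05) in WT and 2.01 ± 0.24 (adjusted p = 0.00381) in CRE BMDMs.

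Trim25, the ligase of RIG-I, was already well expressed in controls. Trim25 stood in BMDCs at an FPKM of 17.5, 25.9 and 25.1 in WT controls, 116, 123 and 157 in WT under DMXAA, 24.9, 24.1 and 24.5 in CRE controls and 163, 98.5 and 118 in CRE under DMXAA. BMDM libraries held Trim25 at 20.3 and 27.1 in WT controls, 155 and 153 in WT under DMXAA, 20.3 and 19.9 in CRE controls and 59.002 and 56.7 in CRE under DMXAA. All DMXAA libraries lay above all controls of their cell type. Trim25 had log2 fold changes of 2.51 ± 0.24 and 2.35 ± 0.23 (SE) in WT and CRE BMDCs, and 2.58 ± 0.17 and 1.504 ± 0.16 in WT and CRE BMDMs. Trim26, linked to turnover of nuclear IRF3, stood in BMDCs at an FPKM of 5.79, 6.81 and 6.25 in WT controls, 16.3, 20.9 and 26.9 in WT under DMXAA, 6.69, 4.74 and 5.9 in CRE controls and 27.03, 14.5 and 20.8 in CRE under DMXAA. BMDM libraries held Trim26 at 6.74 and 5.89 in WT controls, 33.7 and 27.6 in WT under DMXAA, 5.93 and 6.41 in CRE controls and 12.7 and 11.9 in CRE under DMXAA. The groups were apart, with the CRE BMDMs lowest among the DMXAA libraries. Trim26 had log2 fold changes of 1.75 ± 0.26 and 1.82 ± 0.26 (SE) in BMDCs, 2.17 ± 0.14 in WT BMDMs and 0.97 ± 0.14 in CRE BMDMs.

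Trim56, which promotes ubiquitination of STING and cGAS, stood in BMDCs at an FPKM of 2.15, 2.9 and 2.49 in WT controls, 5.09, 7.51 and 10.6 in WT under DMXAA, 2.74, 1.93 and 2.15 in CRE controls and 12.7, 6.29 and 7.17 in CRE under DMXAA. BMDM libraries held Trim56 at 3.98 and 2.67 in WT controls, 13.2 and 10.9 in WT under DMXAA, 3.24 and 3.16 in CRE controls and 6.81 and 6.25 in CRE under DMXAA. No control library reached a DMXAA library of its cell type and label. Trim56 had log2 fold changes of 1.602 ± 0.32 and 1.92 ± 0.33 (SE) in BMDCs, 1.75 ± 0.20 in WT BMDMs and 1.005 ± 0.197 in CRE BMDMs. Trim14, a member without a RING that serves as an adaptor at the mitochondrial protein MAVS, stood in BMDCs at an FPKM of 5.72, 6.29 and 5.99 in WT controls, 9.61, 12.2 and 17.3 in WT under DMXAA, 5.4, 2.91 and 5.41 in CRE controls and 19.8, 6.998 and 11.5 in CRE under DMXAA. BMDM libraries held Trim14 at 6.74 and 2.07 in WT controls, 48.9 and 20.02 in WT under DMXAA, 5.89 and 5.48 in CRE controls and 24.6 and 21.8 in CRE under DMXAA. Controls and DMXAA libraries were apart in each group, but WT BMDM control number 2 was well below number 1. Trim14 rose by 1.102 ± 0.37 (SE, log2) in WT BMDCs (adjusted p = 0.0403), 1.46 ± 0.37 in CRE BMDCs and 2.86 ± 0.604 in WT BMDMs, while the value of 2.01 ± 0.58 in CRE BMDMs did not pass the test (adjusted p = 0.0806). The WT BMDC call of Trim14 was lost in 5 of 6 fits that left out one library. Its gene overlaps Nans on the opposite strand, and the strand setting of the counting was not given in the sources used here.

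Trim13, a ligase of the endoplasmic reticulum membrane, stood in BMDCs at an FPKM of 4.48, 4.32 and 3.39 in WT controls, 4.99, 4.5 and 4.78 in WT under DMXAA, 2.91, 5.43 and 4.22 in CRE controls and 4.08, 4.29 and 5.27 in CRE under DMXAA. BMDM libraries held Trim13 at 3.62 and 6.69 in WT controls, 10.1 and 11.1 in WT under DMXAA, 5.46 and 5.1 in CRE controls and 5.76 and 5.11 in CRE under DMXAA. The WT BMDMs under DMXAA were the highest libraries, the WT BMDCs lay just above their controls, and the CRE groups overlapped. Only the WT BMDM value of 0.93 ± 0.303 (SE, log2) passed the test (adjusted p = 0.0498), and it was lost in 3 of 4 fits without one library. Trim13 shares 3108 bases with Dleu2 on the other strand, which held 5309 counts over all libraries against 3335 of Trim13. Trim38, which restrains Toll-like receptor signalling, was hardly detected and was not tested. Trim38 stood in BMDCs at an FPKM of 0.135, 0 and 0.0764 in WT controls, 0, 0.164 and 0 in WT under DMXAA, 0.147, 0.159 and 0.214 in CRE controls and 0.179, 0.0322 and 0 in CRE under DMXAA. BMDM libraries held Trim38 at 0 and 0.0474 in WT controls, 0 and 0 in WT under DMXAA, 0.028 and 0 in CRE controls and 0 and 0.031 in CRE under DMXAA. No group rose above 1 FPKM.

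**Figure D4:**
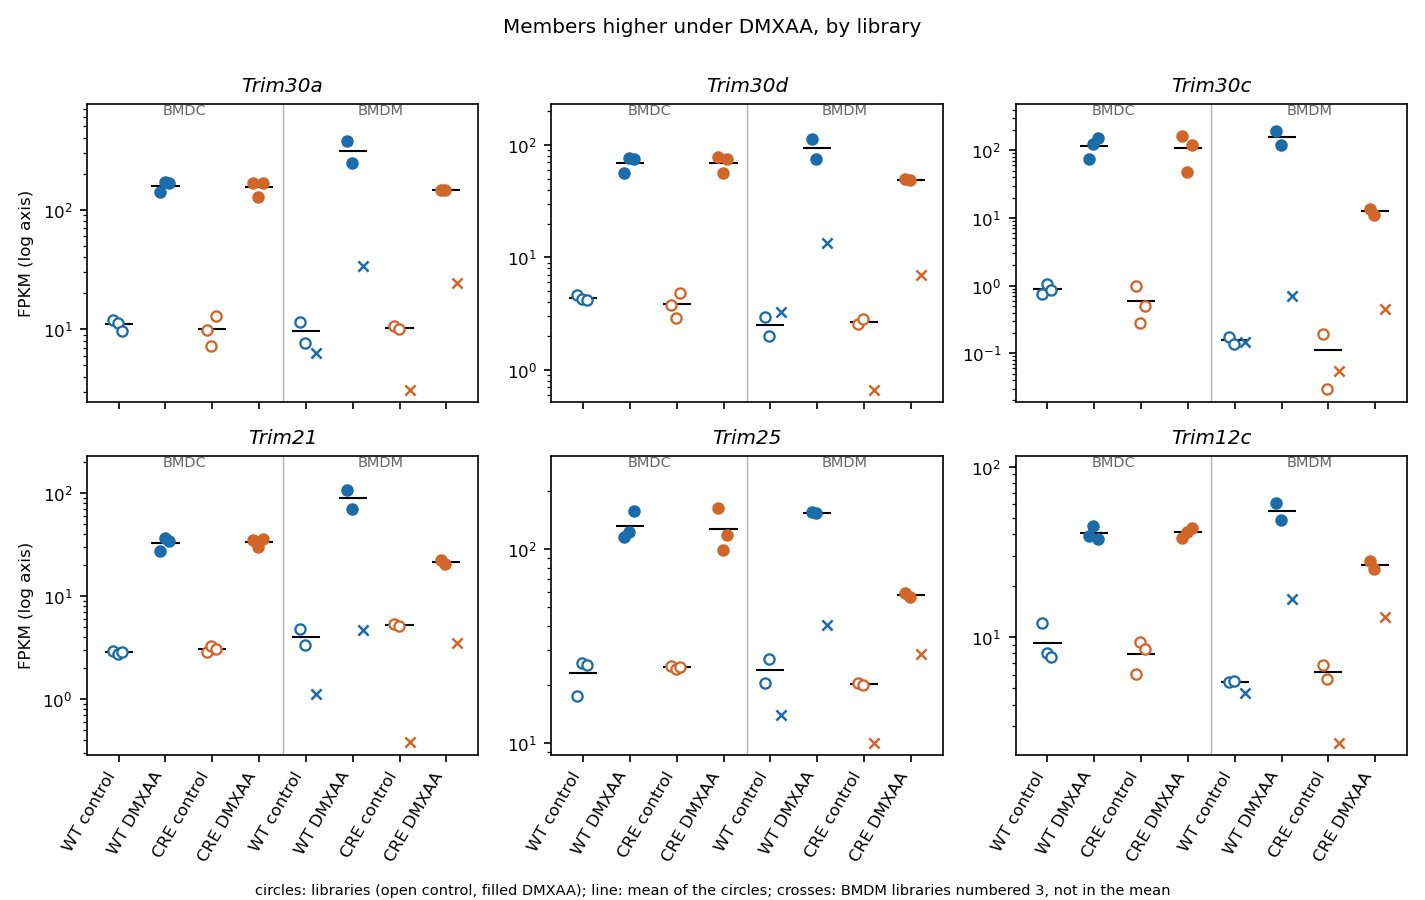
FPKM per library (log axis) of Trim30a, Trim30d, Trim30c, Trim21, Trim25 and Trim12c in the 8 groups; open circles are controls, filled circles DMXAA libraries, lines group means and crosses the BMDM libraries numbered 3. Filled and open circles do not overlap within any group pair, and the WT BMDM circles under DMXAA sit above those of CRE.

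The falling members were fewer and their changes smaller. Trim37, a MATH-domain ligase known for its role at centrosomes, was the one member lower in all 4 responses. Trim37 stood in BMDCs at an FPKM of 3.65, 3.56 and 2.97 in WT controls, 1.56, 2.08 and 1.8 in WT under DMXAA, 3.28, 2.13 and 3.62 in CRE controls and 1.8, 1.16 and 1.6 in CRE under DMXAA. BMDM libraries held Trim37 at 4.9 and 3.46 in WT controls, 1.03 and 1.43 in WT under DMXAA, 4.21 and 4.39 in CRE controls and 2.14 and 2.41 in CRE under DMXAA. Control and DMXAA libraries did not overlap. Its log2 fold change was -0.92 ± 0.23 (SE, adjusted p = 0.0109) in WT BMDCs, -1.01 ± 0.24 in CRE BMDCs, -1.87 ± 0.23 (adjusted p = 0.00137) in WT BMDMs and -0.94 ± 0.23 (adjusted p = 0.0475) in CRE BMDMs. The CRE BMDM call was lost in each of the 4 fits without one library.

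Trim47 was several times higher in BMDM than in BMDC controls. Trim47 stood in BMDCs at an FPKM of 3.21, 4.32 and 5.29 in WT controls, 1.23, 1.46 and 1.6 in WT under DMXAA, 5.67, 4.13 and 5.07 in CRE controls and 1.07, 2.14 and 1.25 in CRE under DMXAA. BMDM libraries held Trim47 at 31.1 and 15.8 in WT controls, 1.94 and 7.04 in WT under DMXAA, 25.5 and 27.8 in CRE controls and 11.04 and 12.2 in CRE under DMXAA. DMXAA libraries were all lower, and the 2 WT BMDM libraries of each group were far apart. Trim47 had log2 fold changes of -1.602 ± 0.296 and -1.76 ± 0.296 (SE) in BMDCs and -2.47 ± 0.58 in WT BMDMs, which passed the test, and -1.22 ± 0.54 in CRE BMDMs, which did not (adjusted p = 0.208). It overlaps Trim65 by 5365 bases on the same strand of chromosome 11, so their reads may be assigned ambiguously. With the filter, no block and all libraries used, Trim65, a ligase of the RNA sensor MDA5, was called in WT BMDCs only. It was at -0.96 ± 0.27 (SE, log2, adjusted p = 0.0167), with mean FPKM of 0.631 under DMXAA and 1.21 in controls. That call was lost in 2 of 6 fits without one library. In WT BMDMs Trim65 was called without a filter (log2 fold change -1.12, adjusted p = 0.00245) and with the replicate block (-1.12, 0.0493). In CRE BMDCs it was called with the block within genotype (-0.67, 0.0198).

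Trim16, a RING-less member linked to the clearance of damaged lysosomes, stood in BMDCs at an FPKM of 2.15, 2.51 and 2.93 in WT controls, 0.749, 1.02 and 0.987 in WT under DMXAA, 2.99, 1.65 and 2.61 in CRE controls and 0.721, 0.69 and 0.721 in CRE under DMXAA. BMDM libraries held Trim16 at 2.23 and 2.69 in WT controls, 0.523 and 1.27 in WT under DMXAA, 2.06 and 1.72 in CRE controls and 1.26 and 0.922 in CRE under DMXAA. DMXAA libraries were lower than controls in each group pair. Trim16 had log2 fold changes of -1.48 ± 0.26 and -1.79 ± 0.26 (SE) in BMDCs and -1.55 ± 0.42 in WT BMDMs, and -0.81 ± 0.42 in CRE BMDMs (adjusted p = 0.264). Trim59, a membrane-anchored member, went apart between the cell types. Trim59 stood in BMDCs at an FPKM of 3.34, 3.1 and 2.19 in WT controls, 2.44, 7.24 and 5.52 in WT under DMXAA, 1.82, 1.88 and 3.13 in CRE controls and 5.3, 2.25 and 8.22 in CRE under DMXAA. BMDM libraries held Trim59 at 6.14 and 5.84 in WT controls, 1.24 and 1.45 in WT under DMXAA, 5.3 and 4.63 in CRE controls and 2.87 and 2.7 in CRE under DMXAA. BMDC groups overlapped while the BMDM groups did not. It fell in both BMDM groups, with log2 fold changes of -2.26 ± 0.18 (SE, adjusted p = 0.000234) in WT and -0.86 ± 0.17 (adjusted p = 0.0278) in CRE. The BMDC values of 0.804 ± 0.48 in WT and 1.18 ± 0.48 in CRE did not pass the test. The difference between the WT responses of BMDCs and BMDMs was 3.08 ± 0.67 (SE, log2, interaction, adjusted p = 0.0231). That interaction call was not kept in all fits that left out 1 library, where the difference was 2.66 to 3.35. The CRE BMDM call was lost in 4 of 4 fits without one library.

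Trim27, a nuclear and endosomal ligase, stood in BMDCs at an FPKM of 8.11, 9.39 and 9.1 in WT controls, 8.85, 5.63 and 6.64 in WT under DMXAA, 8.62, 8.88 and 8.58 in CRE controls and 6.63, 7.18 and 6.71 in CRE under DMXAA. BMDM libraries held Trim27 at 12.6 and 8.98 in WT controls, 5.08 and 4.86 in WT under DMXAA, 10.6 and 11.5 in CRE controls and 10.1 and 10.1 in CRE under DMXAA. Only the WT BMDMs under DMXAA stood clearly below every other BMDM library. The log2 fold change of Trim27 was -1.22 ± 0.17 (SE, adjusted p = 0.00191) there, with -0.15 ± 0.16 in CRE BMDMs, -0.36 ± 0.15 in WT BMDCs and -0.37 ± 0.15 in CRE BMDCs, which did not pass the test. Trim8 was lower in both WT responses, with -0.59 ± 0.19 (SE, log2, adjusted p = 0.0367) in BMDCs and -0.91 ± 0.24 (adjusted p = 0.022) in BMDMs. In CRE BMDMs it was at 0.09 ± 0.23 and in CRE BMDCs at -0.49 ± 0.19, neither called. The WT BMDC call of Trim8 was lost in 5 of 6 fits without one library.

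The members with a PHD finger and a bromodomain, which act on transcription at chromatin, were not called higher in any response. Of 3 tested (Trim24, Trim28 and Trim33), 0 rose and 1 fell in WT BMDCs, 0 rose and 2 fell in WT BMDMs, and none was called under the CRE label. Trim28 stood in BMDCs at an FPKM of 35.1, 32.8 and 35.4 in WT controls, 27.1, 26.99 and 27.6 in WT under DMXAA, 36.5, 29.8 and 33.96 in CRE controls and 26.98, 28.01 and 25.9 in CRE under DMXAA. BMDM libraries held Trim28 at 54.5 and 47.7 in WT controls, 38.2 and 44.8 in WT under DMXAA, 47.9 and 44.7 in CRE controls and 35.6 and 36.5 in CRE under DMXAA. Each DMXAA group lay below its controls without overlap, but by a small margin. Trim28 had log2 fold changes of -0.36 ± 0.12 (SE, adjusted p = 0.0379) in WT and -0.33 ± 0.12 (adjusted p = 0.0616) in CRE BMDCs, and -0.41 ± 0.13 (adjusted p = 0.048) in WT and -0.38 ± 0.13 (adjusted p = 0.122) in CRE BMDMs. The WT BMDC call was lost in 6 of 6 fits without one library.

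Trim24 stood in BMDCs at an FPKM of 1.66, 1.79 and 2.07 in WT controls, 1.92, 2.01 and 2.4 in WT under DMXAA, 2.27, 3.09 and 1.67 in CRE controls and 2.93, 2.52 and 1.83 in CRE under DMXAA. BMDM libraries held Trim24 at 1.76 and 1.77 in WT controls, 0.83 and 1.1 in WT under DMXAA, 1.85 and 1.51 in CRE controls and 1.16 and 1.11 in CRE under DMXAA. BMDC groups overlapped, and the BMDMs under DMXAA lay below their controls. The log2 fold change of Trim24 was -0.98 ± 0.21 (SE, adjusted p = 0.0116) in WT BMDMs, with -0.59 ± 0.21 in CRE BMDMs (adjusted p = 0.133) and values of 0.17 ± 0.24 and 0.02 ± 0.24 in BMDCs. Trim33, which restrains SMAD4 in TGF-beta signalling, stood in BMDCs at an FPKM of 2.65, 2.99 and 2.77 in WT controls, 2.6, 2.77 and 3.33 in WT under DMXAA, 2.99, 2.75 and 2.996 in CRE controls and 3.35, 2.3 and 2.73 in CRE under DMXAA. BMDM libraries held Trim33 at 3.78 and 2.72 in WT controls, 2.75 and 2.24 in WT under DMXAA, 3.28 and 2.98 in CRE controls and 3.85 and 3.57 in CRE under DMXAA. Its groups overlapped except in CRE BMDMs. The 95% interval of its log2 fold change was -0.34 to 0.39 in WT BMDCs and -0.93 to -0.05 in WT BMDMs, and no response of Trim33 was called in the fit without a block. It was called in WT BMDMs with the replicate block (log2 fold change -0.48, adjusted p = 0.0347), and without WT control number 2 (-0.68, 0.0205).

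**Figure D5:**
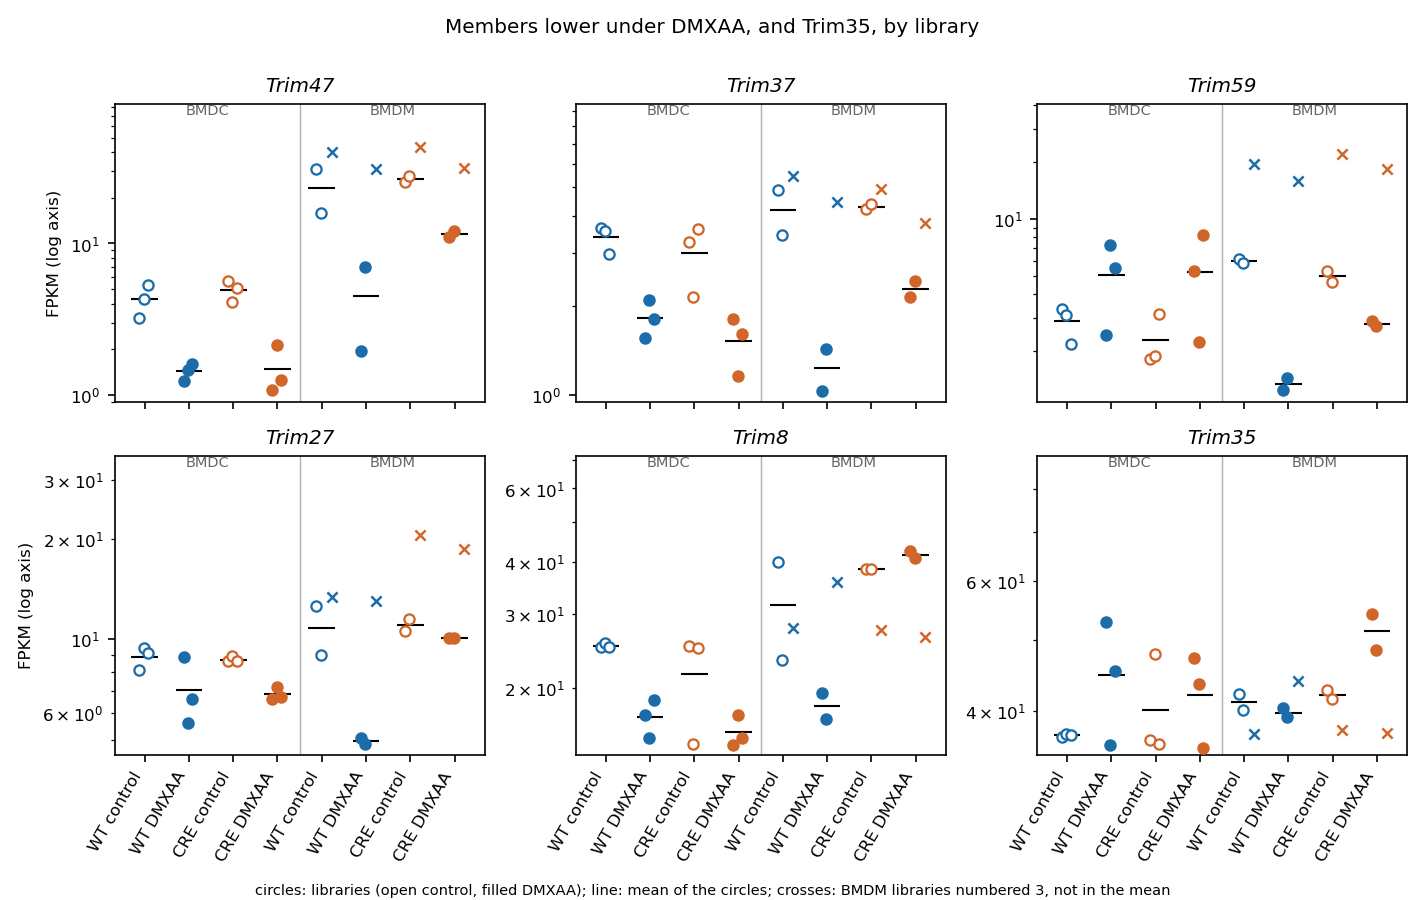
FPKM per library (log axis) of Trim47, Trim37, Trim59, Trim27, Trim8 and Trim35, with symbols as in the plot of the rising members. Trim47 and Trim37 have all DMXAA circles below their controls; Trim59 is lower in BMDMs and overlaps in BMDCs, and Trim35, called in no response, is shown as a level comparator.

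The members tested in all 4 responses and called in none numbered 11, namely Trim3, Trim11, Trim23, Trim32, Trim33, Trim35, Trim36, Trim39, Trim41, Trim44 and Trim68. The NHL-repeat members tested (Trim3 and Trim32) and the COS-box members tested (Trim36 and Trim46) were called in no response of the fits above that have no block. Some alternatives changed that. Trim32 was called in WT BMDMs under the stricter filter (log2 fold change -0.65, adjusted p = 0.0419) and without WT control number 2 (-0.79, 0.0229), and Trim36 without WT DMXAA number 2 (-4.04, 0.00332). A missed call does not show that a gene stayed put, so the intervals matter. Among members not called, the 95% interval of the log2 fold change lay within 1 of 0 on either side for 14 of 18 in WT BMDCs, 16 of 21 in CRE BMDCs, 10 of 13 in WT BMDMs and 15 of 21 in CRE BMDMs. Trim32, a ligase of STING with NHL repeats, stood in BMDCs at an FPKM of 3.52, 3.9 and 3.36 in WT controls, 2.66, 2.81 and 3.76 in WT under DMXAA, 2.999, 4.54 and 3.2 in CRE controls and 3.88, 2.99 and 2.76 in CRE under DMXAA. BMDM libraries held Trim32 at 6.95 and 5.11 in WT controls, 4.57 and 3.94 in WT under DMXAA, 5.94 and 7.18 in CRE controls and 6.32 and 5.45 in CRE under DMXAA. WT BMDMs under DMXAA lay below their controls while the other pairs overlapped. The WT BMDM value of -0.61 ± 0.203 (SE, log2) narrowly missed the threshold (adjusted p = 0.0521), and the intervals were -0.74 to 0.25 in WT BMDCs and -0.66 to 0.297 in CRE BMDMs. Trim35 had an interval of -0.14 to 0.62 in WT BMDCs and -0.42 to 0.099 in WT BMDMs around levels of 35.7 to 54.2 FPKM in the 20 libraries used.

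The genotype labels were compared under each treatment. These comparisons share libraries with the responses above, so they are not separate evidence. In BMDCs no member differed between CRE and WT under DMXAA (edgeR, 0 of 37, 0 with an unadjusted p under 0.05, 0 by DESeq2), and 0% of all genes did. The 95% interval lay within 1 log2 unit of 0 for 31 of 37 members. The BMDC libraries also varied together across the labels, WT number 1 with CRE number 2, WT 2 with CRE 3 and WT 3 with CRE 1, at correlations of 0.388 to 0.733 over genes, whereas libraries of the same number in different labels gave -0.514 to 0.033. With Tmem173 overlapping between the labels in BMDCs, the 0 calls describe the libraries as labelled, and whether numbers or labels hold was not tested. BMDC controls gave 0 of 37 members called (1 with an unadjusted p under 0.05, 0 by DESeq2, 0% of all genes), with 29 of 37 intervals within 1 log2 unit. The interaction of label and DMXAA in BMDCs gave 0 calls as well (0 at an unadjusted p under 0.05, 0 by DESeq2, 0% of all genes). Its intervals were wider, with 23 of 37 within 1 log2 unit. BMDM controls also gave 0 of 35 members called (0 at an unadjusted p under 0.05, 0 by DESeq2), where 0.0432% of all genes were called. There, 26 of 35 intervals lay within 1 log2 unit.

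In BMDMs under DMXAA, 10 of 35 members were lower and 5 higher in CRE than in WT, where 19.2% of all genes were called, 9.99% lower and 9.26% higher. All 10 lower ones belong to the 11 that rose in all 4 responses, and Trim34a is the one left out. Trim30c differed most, at -3.59 ± 0.35 (SE, log2, adjusted p = 0.00179), followed by Trim30b at -2.39 ± 0.32 and Trim21 at -2.00 ± 0.24 (adjusted p = 0.00333). Trim12a was at -1.43 ± 0.14, Trim25 at -1.36 ± 0.16, Trim26 at -1.27 ± 0.14 and Trim30a at -1.04 ± 0.24, with Trim30d and Trim56 at -0.88 and -0.83. Trim12c was also lower (adjusted p = 0.00748), with the values given above. The 5 higher ones were Trim8 at 1.25 ± 0.24, Trim59 at 1.096 ± 0.18, Trim27 at 1.07 ± 0.17, Trim37 at 0.93 ± 0.23 and Trim35 at 0.42 ± 0.11. Of these, 4 had fallen in WT BMDMs under DMXAA. The response itself differed between labels for 5 members, where 3.66% of all genes were called, 1.38% higher and 2.28% lower. The interaction was -2.34 ± 0.33 (SE, log2, adjusted p = 0.0218) for Trim21, -1.49 ± 0.21 for Trim12a, -1.19 ± 0.195 for Trim26, -1.16 ± 0.22 for Trim12c and 1.404 ± 0.25 (adjusted p = 0.0372) for Trim59. These differences rest on 2 libraries a group and on an uneven spread. The biological coefficient of variation over all genes was 35% among the WT and 5.19% among the CRE BMDM libraries. With the WT spread used for all of them, edgeR called 0 members (14 at an unadjusted p under 0.05) and 0% of all genes. With the libraries numbered 3 included it called 0 as well (4 at an unadjusted p under 0.05), and 0% of all genes. Leaving out CRE DMXAA number 1 or number 2 left 1 library in that group. Fewer members and fewer of all genes were called there.

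Before DMXAA the family already differed between the cell types. In WT controls 10 of 40 members tested across both were higher in BMDCs than in BMDMs and 6 lower, where 28.5% of all genes were called, 13.1% higher and 15.4% lower. Trim7 and Trim72 entered this test beside the 38. Among the higher ones were Trim7 at 3.78 ± 0.48 (SE, log2), Trim29 at 2.94 ± 0.83, Trim30c at 2.45 ± 0.76, Trim46 at 2.44 ± 0.402 and Trim12a at 1.31 ± 0.17. Trim5, Trim30d, Trim12c and Trim11 differed by 1.01, 0.75, 0.697 and 0.59. Trim7, too low for a test of its response, stood in BMDCs at an FPKM of 0.624, 0.912 and 1.21 in WT controls, 0.193, 0.164 and 0.253 in WT under DMXAA, 0.998, 1.39 and 0.542 in CRE controls and 0.245, 0.406 and 0.373 in CRE under DMXAA, with each DMXAA group below its controls. Trim72 had 11, 15 and 13 counts in BMDC and 0 and 1 in BMDM libraries. The lower ones were Trim47 at -2.51 ± 0.41, Trim62 at -1.32 ± 0.29, Trim65 at -1.096 ± 0.36, Trim32 at -0.804 ± 0.22, Trim28 at -0.63 ± 0.12 and Trim21 at -0.56 ± 0.19. Trim65 overlapped between the groups despite its call. The calls of Trim11, Trim12c, Trim21, Trim29, Trim30c, Trim30d, Trim32, Trim62 and Trim65 were not kept in every fit that left out 1 library. Over these fits Trim21 ran from -0.75 to -0.26 and Trim65 from -1.55 to -0.31. The value of Trim30c rests on 6 and 5 counts in the WT BMDM controls. With the libraries numbered 3 included 3 members and 8.51% of all genes were called, and the value of Trim46 turned to -0.229. Culture conditions and the marker content differ along with the cell type, and their parts were not tested.

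Other genes of the same pathways were also followed. Over all tested genes 17% and 14% were called higher in WT and CRE BMDCs, and 18.4% and 7.28% in WT and CRE BMDMs. The shares called lower were 15.2%, 11.4%, 20.7% and 2.72% in that order. The lists below were not tested against these shares. Of the 7 family genes that carry other names, 3 were tested, and 2, 2, 3 and 1 of them rose in WT BMDCs, CRE BMDCs, WT BMDMs and CRE BMDMs. Pml, the scaffold of nuclear bodies, went from a mean of 6.29 to 56.5 FPKM in WT BMDCs, a log2 fold change of 3.14. Of the ubiquitin-conjugating enzymes that serve TRIM ligases, 3 of 7 rose in BMDCs under either label, and 3 and 1 of 8 in WT and CRE BMDMs. Ube2l6, which also conjugates ISG15, went from 18.2 to 189 FPKM in WT BMDCs, a log2 fold change of 3.35. Of 14 sensing proteins that TRIM ligases act on, 7 rose and 2 fell in WT BMDCs, 7 rose and 1 fell in CRE BMDCs, 9 rose in WT BMDMs and 3 in CRE BMDMs. Irf7 (log2 fold change 7.23), Ifih1 (5.48) and Ddx58 (4.65), which encode IRF7, MDA5 and RIG-I, led the rises in WT BMDCs, and Mavs (-0.58) and Irf3 (-0.59) were the ones that fell.

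The libraries numbered 3, labelled BMDM, are given as values without a test, in the order WT control, WT DMXAA, CRE control and CRE DMXAA. Trim28 was the most abundant member in all 4, at 83.2, 71.1, 98.3 and 84.3 FPKM. In all, 6 members were at least 2-fold higher under DMXAA under both labels with at least 1 FPKM there. Trim30a stood at 6.34, 34.2, 3.12 and 24.6, Trim25 at 13.9, 40.8, 10.03 and 28.9 and Trim12c at 4.67, 16.7, 2.4 and 13.2 FPKM. Trim30d was at 3.24, 13.4, 0.666 and 6.98, Trim21 at 1.12, 4.67, 0.381 and 3.52 and Trim34b at 0.341, 3.07, 0.153 and 1.63. The agonist libraries are the higher ones for each of the 6, and Trim34b reached more here than in any other library of the series. No member fell 2-fold under both labels. Another 5, tested in BMDMs (Trim5, Trim12a, Trim14, Trim30b and Trim36), were under 0.1 FPKM in all 4. In 11 members, among them Trim16, Trim24, Trim27, Trim28, Trim47 and Trim59, the 4 libraries lay above the other 8 BMDM libraries, and in 8 they lay below. No share over all genes is given for these counts or for the 6 above, so they describe the members only and show no trait of the family. Trim2 was the one member at 1 FPKM or more in all 4 (1.38 to 1.85) and under 1 in the other 8 (0.119 to 0.286). The cluster on chromosome 7 made up 1.79% and 4.14% of the family's FPKM in these controls and between 11.6% and 15.2% under DMXAA.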

How the data were processed

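RNA-seq was done by the study on polyA RNA of 24 cultures. Per the labels, reads were handled with CASAVA 1.8, fastp, HISAT2 2.0.5, featureCounts 1.5.0-p3 and DESeq2 1.20.0 on GRCm38 (mm10). The authors deposited raw counts and FPKM for 54532 genes. Their FPKM values divide by the length of a gene and by a library size (11308414 to 24466270) other than the sum of counts (15657347 to 18912887), so FPKM levels carry that factor and fold changes were taken from counts. All 48 per-library columns were matched, and 0 were left unmatched. The deposited log2 fold changes and p-values of the authors' comparisons were not used.

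Counts were tested with edgeR 4.0.16 (quasi-likelihood, TMM) in R 4.3.3, separately for the 12 BMDC libraries and the 8 BMDM libraries numbered 1 and 2, and over these 20 for cell types. The test took genes that reached 1 FPKM in 3 or more BMDC libraries, 2 or more BMDM libraries, or 2 or more of the 20. Tests were two-sided, with Benjamini-Hochberg adjustment over all genes tested and calls at 0.05. Alternatives were median-of-ratios scaling, other filters, DESeq2 1.42.0, limma 3.58.1 on log2(FPKM + 1), replicate blocks, all BMDM libraries and leaving out each library. Another was the rule stated by the study, an unadjusted p of at most 0.05 with an absolute log2 fold change of at least 1. Refits with the spread of the WT-labelled BMDM libraries were added after seeing the data. Each fit was first tested on simulated data of known changes.

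Same-numbered BMDC libraries of a label correlated at 0.417 to 0.692 in their deviations from group means, so they were read as paired within a label. BMDC libraries of different numbers and labels correlated as strongly (up to 0.733), and those of the same number across labels did not (-0.514 to 0.033). BMDM numbers 1 and 2 gave 0.037 in CRE and 0.685 in WT and were not read as paired, although the WT value lies in the range of the same-numbered BMDC libraries. Values printed for single members come from fits without a block, in both cell types, unless a block is named. What a number stands for is not given in the labels.

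Values in every library are given for members called in a WT response with an absolute log2 fold change of at least 1, a mean of at least 1 FPKM and no overlap, and for a list of members with known roles. Members and lists were chosen with earlier results of these data known. Promoter windows came from RefSeq. Reads lack molecular identifiers, so the fits cover counting error and the spread between libraries only. Of the 38 tested members, 7 overlap a gene with at least 10 percent of their counts (Trim13, Trim14, Trim28, Trim41, Trim46, Trim47 and Trim65). Figures used matplotlib 3.10.9.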

Additional observations from a re-analysis of the deposited data

Results flagged for a closer look

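Interactions of 2 members were past the threshold in the comparison of the cell types. The WT response of Trim12a was smaller in BMDCs than in BMDMs, at -2.01 on the log2 scale, and that of Trim59 went the other way, at 3.08. Trim59 fell in WT BMDMs and was not called in BMDCs, where its groups overlapped.

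In BMDMs the DMXAA response differed between the CRE and WT labels for 5 members. The interaction was -2.34 for Trim21, -1.49 for Trim12a, -1.19 for Trim26, -1.16 for Trim12c and 1.4 for Trim59, each on the log2 scale and each with 2 libraries a group. Fits that left out 1 library held 1 library in a group, and their calls varied over all genes as well as over members.

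In the 4 BMDM libraries numbered 3, which were outside the tests, 6 members (Trim12c, Trim21, Trim25, Trim30a, Trim30d and Trim34b) were at least 2-fold higher under DMXAA than in the control of the same label, with at least 1 FPKM. Each value there is a single library, and no share over all genes is given beside the 6.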

How the results depend on the processing

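Of 109 called values of single members, 1502 refits under the alternatives gave 1215 on the same side of the threshold, 286 that lost their call and 1 that changed sign. Trim46, higher in BMDC than in BMDM controls, came to -0.229 with all BMDM libraries. The number of members called changed most with the BMDM libraries. With all of them it was 0 in the WT and CRE BMDM responses, in CRE against WT BMDMs under DMXAA and in both interactions with calls, and 3 for BMDC against BMDM controls. Over all genes 8.51% were called in that last comparison and 0% in the others. With the spread of the WT-labelled BMDM libraries alone the count was 14 in WT BMDMs, 7 in CRE BMDMs, 0 for CRE against WT under DMXAA and 0 for the BMDM interaction. The shares over all genes were 14.7%, 1.78%, 0% and 0% there. A stricter filter gave 9 for BMDC against BMDM controls, where 33.9% of all genes were called. The rule stated by the study takes an unadjusted p of at most 0.05 and an absolute log2 fold change of at least 1. It makes no adjustment over genes. For the label interaction in BMDMs the count was 10 with DESeq2, 8 with limma and 13 without a filter. It was 15 with a replicate block within genotype and 11 under the study's rule. Over all genes the share called was 10.3%, 4.84%, 5.68%, 14.7% and 10.3% in the same order, against 3.66% without these changes. For the cell type interaction the count of members was 9, 4, 6, 12 and 10 in the same order. There, 5.52%, 3.94%, 2.74%, 11% and 8% of all genes were called, against 2.61% without these changes. The cause was not tested.

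Leaving out one library gave 15 to 17 calls in WT BMDCs and 15 to 19 in CRE BMDCs. It gave 0 calls in the comparisons of labels in BMDCs and in their interaction. Where it left out a BMDM library, a group held 1 library, which was assumed to vary like the others. There the number of calls changed over all genes as well as over members, so it does not describe the family alone. Without a CRE BMDM library fewer members and fewer of all genes were called in the CRE BMDM response. The same held for CRE against WT BMDMs under DMXAA and for the label interaction in BMDMs. Over all genes, leaving out 1 BMDC library gave 24.4% to 27.8% called in the WT BMDC response and 17.9% to 29% in the CRE one. The replicate block gave 18 calls (29.7% of all genes) in WT BMDCs, 16 (23.1%) in CRE BMDCs, 23 (41.5%) in WT BMDMs and 14 (11.6%) in CRE BMDMs. It gave 17 (21.4%) for CRE against WT BMDMs under DMXAA and 15 (26.5%) for BMDC against BMDM controls. Within genotype it gave 21, 21, 25 and 15 in the 4 responses, where 48.7%, 42.7%, 52.8% and 25.2% of all genes were called. Depth limits the lowest members most, as the 1 to 6 counts of Trim30c in BMDM controls show.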
